A study of Mus musculus with 18 samples.

Results

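The 10 genes described here encode the transcription factors that set the erythroid and megakaryocytic programme of blood progenitors: *Gata1*, *Gata2*, *Klf1*, *Gfi1b*, *Tal1*, *Lmo2*, *Zfpm1*, *Lyl1*, *Nfe2* and *Fli1*. They were chosen by name, with earlier results of these data known. All 10 were found, each with 1 row, in each of the 3 FPKM tables, which together list 19919 genes. FPKM counts fragments by kilobase of transcript and by depth of the library. The values come from RNA-seq of MPPs (multipotent progenitors), CD115- CDPs (common dendritic cell progenitors without surface CD115) and CLPs (common lymphoid progenitors) from the bone marrow of C57BL/6 mice aged 6 to 8 weeks, with 3 WT and 3 KO libraries per population, 18 in all. WT mice were *Trim33* fl/fl and KO mice *Trim33* fl/fl Cre-ERT2, in which a tamoxifen-inducible Cre, which acts in the whole animal and whose promoter is not given in the sources used here, removes exons 2 to 4 of *Trim33*. Mice received 2 mg of tamoxifen daily for 5 days and were rested for 7 more. Each population was sorted as lineage-negative cells, and the lineage cocktail held TER119, a marker of erythroid cells. The study's methods call its RNA-seq replicates biological, while the number of mice behind each library is not given in the sources used here.

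GATA factors bind DNA through zinc fingers at the letters GATA. GATA2 keeps stem and early progenitor cells and acts in mast cells, and it is replaced by GATA1 as cells commit to the erythroid or megakaryocytic lineage. GATA1 works with its cofactor FOG-1 (the product of *Zfpm1*) and in a complex in which the bridging protein LMO2 joins it to the basic helix-loop-helix factor TAL1, for which LYL1 is a close relative. KLF1 activates globin and other red cell genes, the repressor GFI1B is needed for red cells and platelets, NFE2 drives platelet release and FLI1, an ETS factor, the megakaryocyte genes.

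The regions before the start sites of the 3 genes called lower in MPPs are shown because these genes carry the main result. They are the 250 bases before a RefSeq start site on GRCm38.p6, the build of mm10, each written 5′ to 3′ on the gene's strand. *Gata1* is at chrX:7967911-7968160 on the minus strand, upstream of a start site inside the gene, *Klf1* at chr8:84901732-84901981 on the plus strand, and *Tal1* at chr4:115056176-115056425 on the plus strand, the first of its 2 start sites. Capitals mark CCNCNCCC, the CACC box bound by KLF factors, in *Gata1*, and the GATA letters in *Klf1* and *Tal1*, on either strand. The GATA letters searched were AGATAA together with the version TGATAA and, with a last G in place of A, the versions AGATAG and also TGATAG, and overlapping matches were each counted.
Gata1: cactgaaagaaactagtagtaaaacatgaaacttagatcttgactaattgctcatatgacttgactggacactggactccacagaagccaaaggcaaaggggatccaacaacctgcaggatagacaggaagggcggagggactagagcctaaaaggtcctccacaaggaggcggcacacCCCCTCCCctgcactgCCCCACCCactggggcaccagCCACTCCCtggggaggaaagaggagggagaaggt
Klf1: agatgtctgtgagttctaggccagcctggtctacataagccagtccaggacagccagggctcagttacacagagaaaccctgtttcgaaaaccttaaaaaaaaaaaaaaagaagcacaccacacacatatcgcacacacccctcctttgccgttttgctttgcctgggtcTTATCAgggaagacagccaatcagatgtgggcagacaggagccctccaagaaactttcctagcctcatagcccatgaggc
Tal1: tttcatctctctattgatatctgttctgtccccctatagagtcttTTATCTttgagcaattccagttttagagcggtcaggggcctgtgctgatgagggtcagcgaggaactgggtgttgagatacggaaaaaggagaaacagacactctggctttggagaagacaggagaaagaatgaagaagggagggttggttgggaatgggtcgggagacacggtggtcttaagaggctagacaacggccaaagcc
The *Gata1* stretch holds 3 CACC boxes and 0 GATA matches, while those of *Klf1* and *Tal1* hold 1 GATA match and 0 CACC boxes each. The stretch before the second *Tal1* start site, which is not shown, holds 0 GATA matches and 4 CACC boxes. Start sites were matched for 7 of the 10 genes, 9 in all, and the other GATA match was 1 in *Gfi1b*. Among 32851 stretches of the same length in the table, 26.5% hold the GATA letters and 45.9% the CACC box. A match of these letters says nothing of binding, which was not measured here.

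The libraries were sequenced to a like depth, placed between 19.3 M and 21.5 M mapped reads by the smallest steps of low FPKM values. Each library was nearest, by Pearson r of log2(FPKM + 1), to another of its own group in 15 of 18 cases. The exceptions were MPP KO 3, which lay nearest to MPP WT 3, and CD115- CDP WT 3 and KO 3, which lay nearest to CD115- CDP KO 3 and MPP KO 3. *Trim33* itself was 8.78 to 10.42 FPKM in WT MPPs and 9.71, 11.66 and 4.80 FPKM in MPP KO 1, 2 and 3, so only KO 3 lay below the WT range. It was 8.27 to 15.23 and 4.03 to 9.64 FPKM in WT and KO CD115- CDPs and 7.01 to 12.36 and 5.6 to 7.66 FPKM in CLPs, where the ranges also overlapped. A gene-level value covers all exons and not those deleted alone, and so it does not check the labels. All genes behind the MPP gate were present in MPPs, with *Kit* at 71.63 to 74.80 FPKM in WT and 29.92 to 49.88 in KO and *Cd34* above 346 FPKM in every library. In the CD115- CDPs, *Csf1r*, which encodes CD115, was listed at 39.11 to 136.77 FPKM in WT and 9.24 to 37.18 in KO, although the cells were sorted without the surface protein.

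Each of the 10 factors had its highest mean of the 6 groups in WT MPPs. The ranges of *Gata2*, *Gfi1b* and *Lyl1* there overlapped with the next group in the order, and those of the other 7 did not. *Lmo2* was the most abundant in MPPs at 401 ± 36.4 FPKM (mean ± SD, n = 3, as below), followed by *Lyl1* at 140 ± 14.1 and *Nfe2* at 97.5 ± 9.99 FPKM. *Gata2* at 32.7 ± 1.82 FPKM stood far above *Gata1* at 2.31 ± 0.211 FPKM, and *Klf1* was at 3.68 ± 0.220 FPKM. The tables of the 3 populations were made separately, so levels across them are given side by side with no test.

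**Figure D1:**
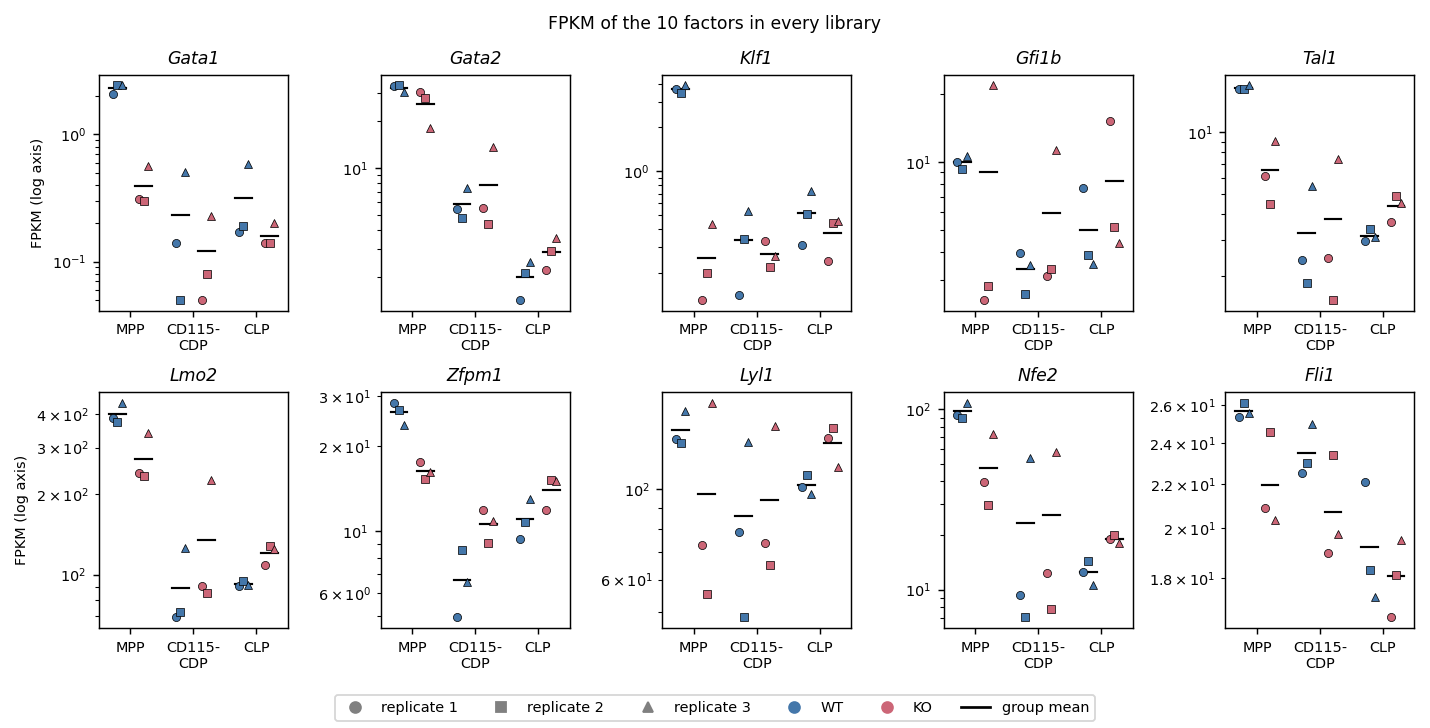
FPKM of each factor on a log axis in the 18 libraries; blue points are WT, red points KO, the shape is the replicate number and black bars are group means. *Gata1* and *Klf1* were above 2 FPKM only in the 3 WT MPP libraries, and replicate 3 stood high in CD115- CDPs of both genotypes for *Nfe2*, at 53.52 and 57.80 FPKM.

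The GATA pair differed in how they were spread over the 6 groups. *Gata2* fell in steps, from WT and KO MPPs (25.6 ± 6.79 FPKM in KO) to KO and WT CD115- CDPs (7.79 ± 4.99 and 5.86 ± 1.37 FPKM) and then to KO and WT CLPs (2.89 ± 0.661 and 1.997 ± 0.533 FPKM). Neighbouring groups of the same population overlapped and the 3 populations did not. *Gata1* was above 1 FPKM in WT MPPs alone, and the other 5 groups, from 0.390 ± 0.147 FPKM in KO MPPs to 0.120 ± 0.0964 FPKM in KO CD115- CDPs, overlapped with their neighbours. *Klf1* had the same shape, with WT MPPs apart and group means of 0.253 to 0.517 FPKM in the other 5, of which KO MPPs were the lowest. At the estimated depth, a *Gata1* value of 0.31 FPKM in MPP KO 1 stands for about 12 reads and 2.07 FPKM in MPP WT 1 for about 81, while *Klf1* fell between about 4 and 13 reads in KO MPPs and 105 and 123 in WT MPPs. These read numbers assume the RefSeq transcript lengths of 1902 and 1530 bases.

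In MPPs, *Gata1*, *Klf1* and *Tal1* were lower in the libraries labelled KO. *Klf1* was 3.67, 3.46 and 3.90 FPKM in WT 1 to 3 and 0.13, 0.20 and 0.43 FPKM in KO 1 to 3. All 3 KO libraries lay far below the WT libraries, the mean was 14.5-fold lower, and the log2 fold change on the log2(FPKM + 1) scale, which understates changes of low genes, was -1.91 (SE 0.130, limma adjusted p = 0.0018). *Gata1* was 2.07, 2.44 and 2.43 FPKM in WT and 0.31, 0.30 and 0.56 FPKM in KO MPPs. Again the groups were well apart, with a mean 5.93-fold lower and a log2 fold change of -1.26 (SE 0.125, adjusted p = 0.00617). *Tal1*, which nucleates the complex around GATA1, was 16.25, 16.20 and 16.95 FPKM in WT and 6.18, 4.51 and 9.06 FPKM in KO. Its mean was 2.50-fold lower with a log2 fold change of -1.25 (SE 0.219, adjusted p = 0.0350).

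These 3 of 10 factors were called lower, where a call needs a log2 change of 1 or more in size with an adjusted p no higher than 0.05, and 0 were called higher. Among all 12372 tested genes, 1.32% were called lower and 0.162% higher. The 3 KO libraries lay wholly below the WT range for 7 of the 10 factors and wholly above it for 0, where 23.3% and 6.98% of all genes did so. The median log2 fold change was -0.69 over the 10 factors and -0.11 over all tested genes. Since these are bulk samples, fewer cells that express a factor and less of its RNA per cell cannot be told apart.

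*Zfpm1* was 28.51, 26.95 and 23.80 FPKM in WT and 17.49, 15.33 and 16.15 FPKM in KO MPPs. It had the tightest fall of the cofactors, and at -0.66 (SE 0.111, adjusted p = 0.0306) it passed the adjusted p but not the minimum fold. Of all tested genes, 3.52% were lower with such an adjusted p, whatever their fold. *Lmo2* had 388.21, 373.08 and 442.23 FPKM in WT and 241.63, 235.02 and 341.36 FPKM in KO, with a log2 fold change of -0.57 (adjusted p = 0.1001). *Nfe2* had 93.51, 90.09 and 108.85 FPKM in WT and 39.65, 29.46 and 72.83 FPKM in KO, with a log2 fold change of -1.12 (adjusted p = 0.0976). The WT and KO libraries of *Lmo2* and *Nfe2* did not overlap, yet neither passed the test, and KO 3 was the nearest to WT in each. *Fli1* at 25.39 to 26.15 FPKM in WT and 20.36 to 24.58 FPKM in KO was also apart without passing, at -0.22 (adjusted p = 0.240).

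The 3 KO MPP libraries differed from each other, and the direction depended on the factor. Beside this, the summed FPKM of 8 background markers of CLPs was 1202.8 in KO 3. It was 658.16 and 563.45 in KO 1 and KO 2 and 593.47 to 680.14 in WT MPPs. That of the neutrophil precursor markers was 1805.52 in KO 3, beside 2823.62 and 1713.94 in KO 1 and KO 2. The part of either in the values of the factors was not tested. *Gfi1b* was 9.29 to 10.61 FPKM in WT, 2.45 and 2.81 FPKM in KO 1 and KO 2, and 21.93 FPKM in KO 3. KO 3 alone thus stood above the WT range, and the log2 fold change of -0.71 had a 95% interval of -2.37 to 0.95 (adjusted p = 0.521). *Lyl1* had the same split, with 129.95 to 155.74 FPKM in WT, 73.17 and 55.34 FPKM in KO 1 and KO 2 and 163.23 FPKM in KO 3. *Gata2* split the other way, with 30.67 and 28.24 FPKM in KO 1 and KO 2 beside 30.59 to 33.86 FPKM in WT, and 17.88 FPKM in KO 3. Its log2 fold change was -0.37 with a 95% interval of -0.85 to 0.10 (adjusted p = 0.283). For *Gata1*, *Klf1* and *Zfpm1* the KO libraries differed less. All 3 were between -1.35 and -1.08, -2.05 and -1.71, and -0.74 and -0.56 from the WT mean. KO 3 was still the nearest to WT for *Gata1* and *Klf1*.

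**Figure D2:**
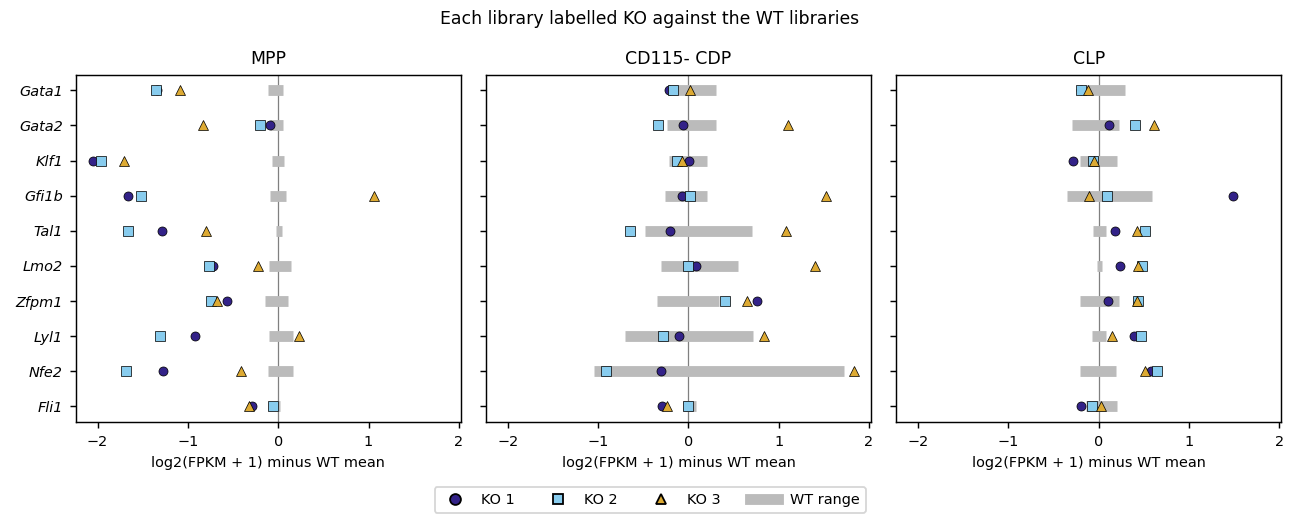
Each library labelled KO as log2(FPKM + 1) minus the mean of the 3 WT libraries of its population; the grey bar is the WT range and the marker the KO replicate number. In MPPs KO 3 sat at 1.07 for *Gfi1b* against -1.67 and -1.52 for KO 1 and KO 2, while for *Klf1* all 3 lay between -2.05 and -1.71.

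Leaving out KO 3 raised the number of factors called lower to 6, with *Gfi1b* at -1.60, *Lyl1* at -1.12 and *Nfe2* at -1.48 beside *Gata1*, *Klf1* and *Tal1*. Among all tested genes, 548 of 12375 were then called lower and 368 higher, against 163 and 20 of 12372 with all libraries. With KO 3 as the only KO library, the log2 fold change was -1.08 for *Gata1*, -1.71 for *Klf1*, -0.80 for *Tal1* and 1.07 for *Gfi1b*. That fit takes the lone KO library to vary like the WT libraries, so its calls are not given. *Klf1* was called in each of the 6 fits that left out 1 library. *Gata1* was called in 4 of them, and the adjusted p was 0.0528 without WT 2 and 0.0544 without WT 3. *Tal1* was called in 1 of the 6, that without KO 3, and its adjusted p otherwise ran from 0.0654 without KO 2 to 0.174 without WT 1.

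In CD115- CDPs 0 of the 8 factors that passed the filter of a mean of 0.5 FPKM were called, where 0.0654% of 12229 genes were called lower and 0.0409% higher. *Gata1* and *Klf1* did not pass it, with 0.05 to 0.51 and 0.14 to 0.53 FPKM over the 6 libraries. The KO libraries lay wholly above the WT range for 1 of the 10 factors and wholly below it for 0, against 7.68% and 10.6% of all tested genes. That factor was *Zfpm1*, at 4.93, 8.57 and 6.59 FPKM in WT and 11.81, 9.02 and 10.84 FPKM in KO, a log2 fold change of 0.61 (95% interval 0.06 to 1.15, adjusted p = 0.441).

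Replicate number, more than genotype, ordered several factors in CD115- CDPs. *Nfe2* was 9.37, 7.03 and 53.52 FPKM in WT 1 to 3 and 12.37, 7.78 and 57.80 FPKM in KO 1 to 3. The third library of each genotype was thus the high one, and the 95% interval of the log2 fold change was -2.07 to 2.47. *Tal1* followed it with 5.50 and 7.43 FPKM in WT 3 and KO 3 against 1.54 to 2.45 FPKM in the other 4 libraries, and *Lmo2* with 125.49 and 227.63 FPKM against 69.17 to 90.78 FPKM. Beside these, the summed FPKM of the neutrophil precursor markers was 4696 in WT 3 and 4594 in KO 3 and 730 to 1151 in the other 4 libraries, with 13 of 14 markers listed and 0 of them at 0 throughout, and its part in these values was not tested. *Gata2* and *Gfi1b* were high in KO 3 only, at 13.51 and 11.35 FPKM against 4.35 to 7.40 and 2.60 to 3.97 FPKM in the other 5.

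In CLPs 7 of the 8 factors that passed the filter had a positive log2 fold change, the exception being *Fli1* at -0.08. *Nfe2* was 12.51, 14.34 and 10.66 FPKM in WT and 19.08, 20.02 and 18.11 FPKM in KO CLPs. The groups were clearly apart, with a log2 fold change of 0.58 (SE 0.124, adjusted p = 0.0166). *Lmo2* was 90.64, 94.38 and 91.09 FPKM in WT and 108.67, 128.26 and 124.98 FPKM in KO, a log2 fold change of 0.38 (SE 0.0986, adjusted p = 0.0355). *Tal1* at 2.97, 3.38 and 3.11 FPKM in WT and 3.69, 4.93 and 4.55 FPKM in KO, and *Lyl1* at 97.21 to 108.58 FPKM in WT and 113.39 to 141.50 FPKM in KO, were apart in range without passing (adjusted p = 0.0992 and 0.0836).

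Of the 8 factors tested in CLPs, 0 were called in either direction, where 2.84% of 12339 genes were called lower and 0.673% higher. Without the minimum fold, 2 were higher, *Nfe2* and *Lmo2*, where 5.41% of all genes were. With the replicate number as a block this became 4 (8.44% of all genes), as *Gfi1b* at 0.49 (adjusted p = 0.0497) and *Lyl1* at 0.33 (adjusted p = 0.0423) joined them. The KO libraries lay wholly above the WT range for 4 of 10 factors and wholly below it for 0, against 15.3% and 18.6% of tested genes. The median log2 fold change of the 8 was 0.37 and that of all tested genes 0.01. *Gfi1b* was the most uneven, with 7.68, 3.86 and 3.52 FPKM in WT and 15.16, 5.15 and 4.36 FPKM in KO, so that replicate 1 was the high one in both genotypes. *Gata1* at 0.14 to 0.59 FPKM and *Klf1* at 0.24 to 0.73 FPKM were below the filter.

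Of the 4 genes of the MPP gate, 2 lay wholly above the WT range in KO CLPs and 2 overlapped with it. *Cd34* was 134.62 to 156.08 FPKM in WT and 212.35 to 227.54 FPKM in KO, and *Kit* 11.49 to 13.84 and 18.63 to 22.44 FPKM. Of 8 background markers of MPPs, 3 lay wholly above the WT range, 5 overlapped with it and 0 were called, where 15.3% of all genes lay above it, with a summed FPKM of 101.58 to 109.83 in WT and 134.05 to 154.41 in KO and 0 of them at 0 throughout. Of 8 background markers of CD115- CDPs, 6 lay wholly below it, where 18.6% of all genes did, at 2241 to 2506 and 454.54 to 487.47 FPKM in sum. Of 8 background markers of CLPs themselves, 4 lay wholly above the WT range, 1 lay below it and 3 overlapped with it. Of these, 2 were called higher and 1 lower, where 0.673% and 2.84% of all genes were. The median log2 fold change was 0.67 for CLP markers and 0.32 for MPP markers. The part of these genes in the higher values of the factors was not tested.

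**Figure D3:**
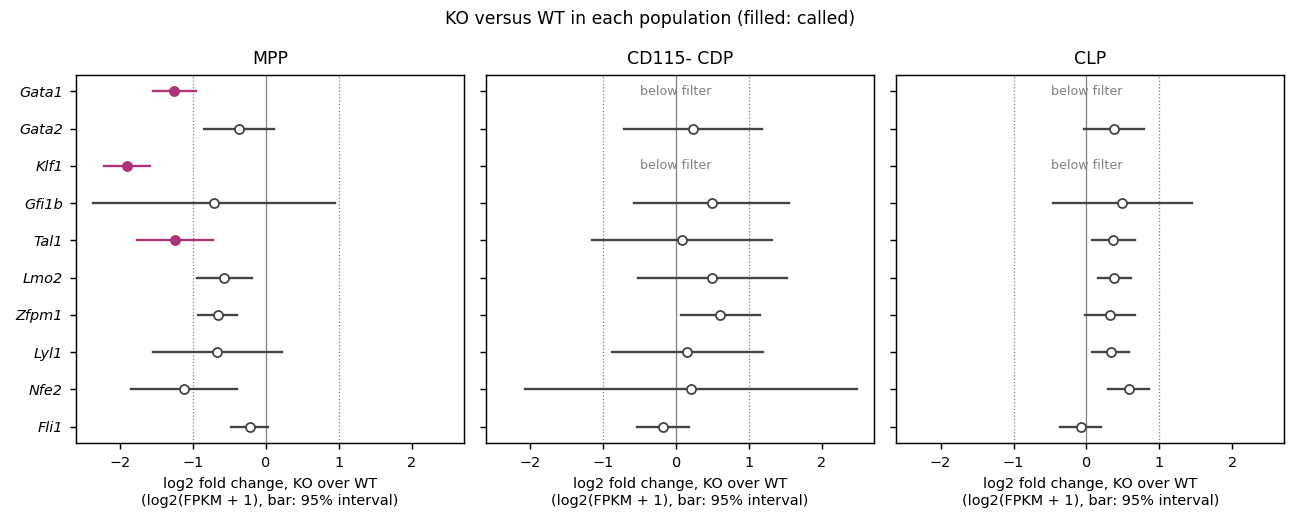
Log2 fold change of KO over WT from limma on log2(FPKM + 1) with its 95% interval for each factor and population; filled magenta points were called and open points were not. The 3 called factors, *Klf1* at -1.91, *Gata1* at -1.26 and *Tal1* at -1.25, are all in MPPs, and *Gata1* and *Klf1* were too low to be tested in the other populations.

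The difference of the KO effect between populations was tested over all 18 libraries as an interaction, and it is read for the 8 factors that passed the filter in each population. *Gata1* and *Klf1* are left out, since they were near the floor of the measurement in WT CD115- CDPs and CLPs, where a fall of the size seen in MPPs could not have been recorded. Of the 8 factors 1 passed the test, where 1.95% of the 11668 genes past the filter in each population did. It was *Zfpm1*, whose log2 fold change was 0.98 higher in CLPs than in MPPs and 1.27 higher in CD115- CDPs than in MPPs (SE 0.241 each, adjusted p of the interaction 0.0188). Its level was 4.93 to 12.97 FPKM in the WT libraries of CD115- CDPs and CLPs.

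*Tal1*, *Lmo2* and *Nfe2* had all 3 KO libraries below WT in MPPs and above WT in CLPs, with differences of 1.62, 0.96 and 1.70 between the 2 effects, but did not pass the interaction test (adjusted p = 0.192, 0.303 and 0.519). The fit shares 1 spread among populations, and for these genes the SE of the log2 fold change was 0.517, 0.426 and 0.948 in CD115- CDPs against 0.131, 0.0986 and 0.124 in CLPs. Where the libraries were weighted by population, an alternative added after the data had been seen, *Tal1* passed (adjusted p = 0.0396), and 4.66% of the 11668 genes did. With the replicate number as a block all 3 passed (adjusted p = 0.0045, 0.0065 and 0.0033), and 8.15% of the 11668 genes did. That block takes same-numbered WT and KO libraries as pairs, which the correlations given below did not settle. On simulated data the interaction test made more false calls than its threshold allows.

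The genes these factors are known to act on were taken as lists, which share members with the markers of red cells and platelets. The lists were chosen with earlier results of these data known, so their counts are no independent test. In MPPs 15 of 35 tested erythroid target genes were called lower and 0 higher, where 1.32% and 0.162% of all genes were, and the median log2 fold change was -0.98 over the list and -0.11 over all genes. Those with the largest falls were *Hba-a1*, *Hbb-bs*, *Hba-a2* and *Ahsp*. *Ahsp*, the chaperone of alpha globin, was 11.80, 12.17 and 10.87 FPKM in WT and 0.00, 0.11 and 0.97 FPKM in KO, with a log2 fold change of -3.28 (adjusted p = 0.0026). *Hbb-bs*, an adult beta globin, was 93.24 to 111.23 FPKM in WT and 0.00, 0.00 and 2.34 FPKM in KO, although reads can be shared between the near-identical globin copies. Genes of haem synthesis past its first step, *Cpox*, *Uros*, *Fech* and *Urod*, chosen after their values were seen, did not pass the test, with log2 fold changes of -0.49 to -0.28.

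Of the megakaryocyte target genes, 3 of 14 tested were called lower in MPPs and 0 higher, with a median of -0.42, beside the same 1.32% and -0.11 over all genes. Among them, *Itga2b*, which encodes the platelet integrin CD41, was 9.11, 8.85 and 8.51 FPKM in WT and 4.45, 3.56 and 2.63 FPKM in KO, a log2 fold change of -1.13 (adjusted p = 0.0232), and *Mmrn1*, which encodes a platelet protein, had a log2 fold change of -1.51 (adjusted p = 0.00617). Mast cell and basophil genes, a known output of GATA2, were called lower for 4 of 14 tested with a median of -0.86, against that same background. They were *Prss34* at -1.44, *Mcpt8* at -1.39, *Cpa3* at -1.37 and *Ms4a2* at -1.05. *Cpa3*, a mast cell protease, was 12.17 to 12.65 FPKM in WT and 3.16 to 5.53 FPKM in KO.

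Genes of complex partners and of related family members were counted in the same way. Of 31 complex partners, which include *Trim33* itself, 0 were called in MPPs in either direction, with a median of -0.05, and of 24 tested relatives of the same families 1 was called lower, both near the 1.32% of all genes. It was *Klf6*, a broadly expressed KLF factor, at 304.20 to 354.07 FPKM in WT and 130.23 to 183.01 FPKM in KO (log2 fold change -1.08, adjusted p = 0.0150). In CLPs *Tcf4*, a partner of TAL1 and a factor of plasmacytoid dendritic cells, was called lower at -1.04 (adjusted p = 0.0081).

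In CLPs 3 of 24 tested erythroid target genes were called lower and 0 higher, where 2.84% and 0.673% of all genes were, and all 3 were globins. *Hba-a1* was 16.32 to 26.14 FPKM in WT and 1.26 to 2.19 FPKM in KO CLPs, where *Gata1* and *Klf1* were below 1 FPKM in both genotypes. Beside these, 9 of 12 erythroblast markers, globins included, lay wholly below the WT range in CLPs and 0 above it (54.38 to 74.16 FPKM in sum in WT and 26.82 to 40.33 in KO), where 18.6% of all genes lay below it. Neutrophil precursor markers had a median log2 fold change of -1.15 in CLPs, with 0 of 13 called. Of these 13, 0 lay wholly below the WT range, 2 lay above it and 11 overlapped with it. Their summed FPKM was 464.65 to 1089.01 in WT and 267.42 to 454.31 in KO. With the replicate block 7 were called lower, where 3.11% of all genes were. The part of such cells in these values was not tested. *Hbb-bs* and *Hba-a2* were the others, at -2.35 and -1.67. *Itgb3*, an integrin of platelets and of other blood cells, was the 1 megakaryocyte gene of 11 called lower, at -1.58, and *Csf2rb* and *Csf2rb2*, receptor chains with near-identical sequence, were the 2 of 11 mast cell and basophil genes, at -1.63 and -3.36. In CD115- CDPs, where only 0.0654% of all genes were called lower and 0.0409% higher, 0 of 22 erythroid and 0 of 12 megakaryocyte targets were called. Of 14 mast cell and basophil genes 1 was called, *Csf2rb2* at -2.38 (adjusted p = 0.0177). With the replicate block the last count was 4 and 1 erythroid target was called in each direction, where 1.46% of all genes were called lower and 0.376% higher.

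**Figure D4:**
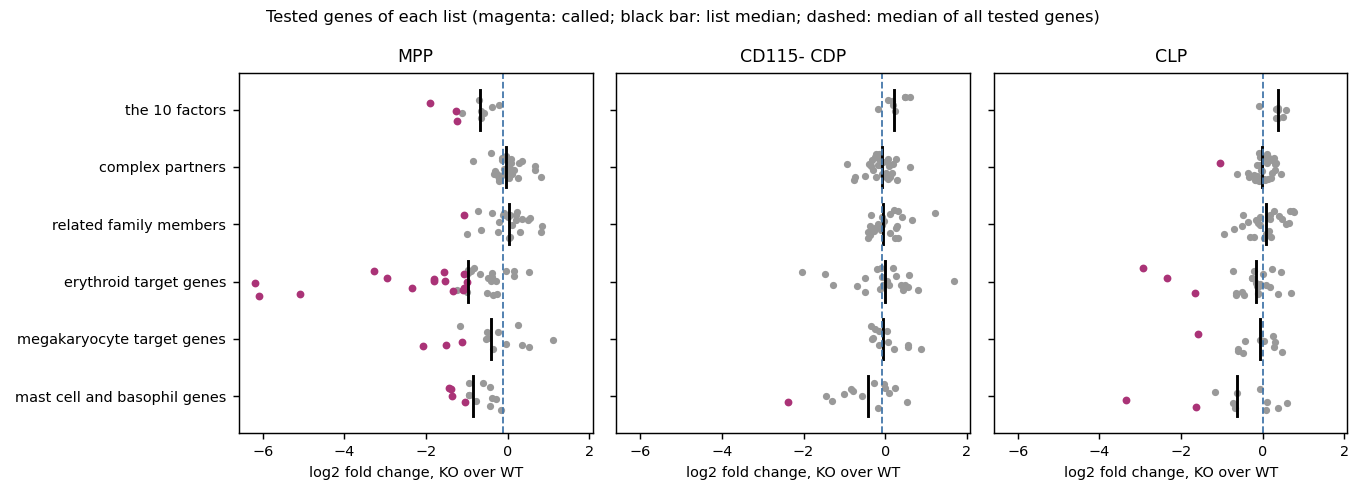
Log2 fold change of each tested gene in the 6 lists and 3 populations; magenta points were called, black bars are list medians and the dashed line is the median of all tested genes. In MPPs the medians of the 10 factors, erythroid, megakaryocyte and mast cell lists were -0.69, -0.98, -0.42 and -0.86, beside -0.05 for complex partners.

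Markers of several mature cell types were counted beside the fall of *Gata1*, *Klf1* and *Tal1* in MPPs. Of 12 erythroblast markers, 11 lay wholly below the WT range, where 23.3% of all genes did, and 9 were called lower, where 1.32% were. Their summed FPKM was 548.82 to 575.77 in WT and 135.92 to 188.34 in KO. Among the defining globins *Hbb-bs* was at 0 in KO 1 and KO 2, while *Hbb-bt* overlapped with WT (log2 fold change -0.39, adjusted p = 0.297). Platelet markers lay below it for 5 of 8 (21.68 to 24.00 against 8.90 to 11.42 FPKM) and macrophage markers for 9 of 13 (20.50 to 22.11 against 7.47 to 9.46 FPKM). Neutrophil precursor markers lay below it for 7 of 13 (3787 to 3906 against 1714 to 2824 FPKM) and B lymphoid markers for 7 of 9 (66.06 to 72.19 against 23.97 to 43.78 FPKM). T cell markers lay below it for 4 of 8, but their summed ranges overlapped (67.37 to 77.91 against 62.21 to 78.73 FPKM). Of those past the filter, 1 of 4 platelet and 4 of 9 macrophage markers were called lower, beside that 1.32% of all genes. So were 4 of 13 neutrophil precursor and 2 of 9 B lymphoid markers. Of the T cell markers 0 of 3 were called lower, with a median log2 fold change of -0.05. In none of these lists was a listed marker at 0 in all 6 libraries, and 0 markers lay above the WT range. The part of such cells in the values of the factors was not tested.

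The genes whose level followed *Gata1* most closely over the 18 libraries were *Car1*, a red cell carbonic anhydrase, *Rtkn* and *Ahsp*, with Pearson r of 0.98, 0.97 and 0.95 on log2(FPKM + 1). For *Klf1* they were *Ahsp*, *Car1* and *Aqp1*, the water channel of red cells, at 0.97, 0.96 and 0.94. *Gata2* had other neighbours, namely *Gstm1*, *Krt18* and *Rab38* at 0.99, 0.97 and 0.97. Among the factors, *Tal1* and *Nfe2* had the closest levels (r 0.96), together with *Gata1* and *Klf1* (r 0.96), while *Fli1* followed none above 0.64. These values describe libraries of 3 populations whose tables were made separately, and for *Gata1* and *Klf1* the 3 WT MPP libraries stand apart from the other 15.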

How the data were processed

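RNA-seq of sorted MPPs, CD115- CDPs and CLPs was used, with WT and KO groups of 3 libraries each taken from the labels. The authors made poly-A libraries, sequenced single-end reads of 50 bases, used Bowtie2 v2.2.5 for alignment and RSEM v1.2.12 for quantification; HISAT2 v2.0.4 and mm10 are also named. The deposited values are FPKM with 2 decimals. Read counts were not used here, so the count tests of the study were not repeated.

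Genes averaging 0.5 FPKM or more were tested per population on log2(FPKM + 1) with lmFit and eBayes (trend) of limma 3.58.1 in R 4.3.3 with Benjamini-Hochberg adjustment; differences between populations used an F test of the interaction, read only for genes past the filter in each population. The fits were tested on simulated data, in which the interaction test made more false calls than its threshold allows. The replicate numbers of the labels were checked by correlating the deviations of WT and KO libraries. Same-numbered libraries had r of 0.04, 0.48 and 0.47 (MPPs), 0.44, 0.67 and 0.79 (CD115- CDPs), then 0.40, 0.33 and 0.13 (CLPs). The KO library of the same number had the highest r for each WT library except MPP WT 1 and CLP WT 3. Both of these had a higher r with KO 2, at 0.12 and 0.23. CD115- CDP WT 2 had 0.66 with KO 1, close to its 0.67 with KO 2. Whether equal numbers mark pairs was therefore not settled for any population. Depth was estimated from genes with a single GENCODE vM21 transcript; reads carry no molecular identifiers, so the read numbers bear on counting error only. All factors, *Trim33*, up to 4 called list genes per population with the largest changes, and the 3 genes most alike were named, except that some list genes are not reported here. The factors and lists were chosen with earlier results of these data known. Alternatives are listed in the closing section. Tables were made with pandas 2.3.3, numpy 2.4.6 and matplotlib 3.10.9 in Python 3.11.15.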

Additional observations from a re-analysis of the deposited data

Results flagged for a closer look

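The KO effect on *Zfpm1* differed between populations by the interaction test. Its log2 fold change in CLPs minus that in MPPs was 0.98, and that in CD115- CDPs minus that in MPPs was 1.27. *Zfpm1* was lower in all 3 KO libraries in MPPs and higher in all 3 in CD115- CDPs, while the WT and KO ranges overlapped in CLPs. Within CD115- CDPs and CLPs it did not pass (limma adjusted p = 0.441 and 0.188). On simulated data the interaction test made more false calls than its threshold allows. That test was not read for *Klf1* and *Gata1*, which were near the floor outside WT MPPs. Groups of 3 are too small for a test of single outlying libraries, so none was run.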

How the results depend on the processing

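*Klf1* and *Gata1* kept their direction in MPPs under every alternative. Leaving aside the fit with KO 3 as the only KO library, *Klf1* stayed called in each fit that tested it. *Gata1* lost its call only without WT 2 or WT 3. *Tal1* lost its call with no filter on low values (adjusted p = 0.0686) and with a filter at 5 FPKM (0.0517), where 0 factors were called because *Gata1* and *Klf1* were no longer tested. The median over all tested genes was -0.11 in MPPs and -0.07 in CD115- CDPs, -0.01 and -0.04 with median ratios, and -0.13 and -0.19 in TPM. FPKM of low genes rest on few reads, which limits *Gata1* and *Klf1* outside WT MPPs. The causes of the changes below were not tested, apart from fewer genes tested or fewer libraries.

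The number of genes called lower in MPPs was 245 with a pseudocount of 0.1 and 245 in TPM. With a filter at 5 FPKM it was 65 lower and 9 higher in MPPs, with 228 and 55 in CLPs, and 3 higher in CD115- CDPs. Without a filter it was 4 lower and 2 higher in CD115- CDPs, and with a pseudocount of 0.1 it was 148 higher in CLPs. Without both of KO 1 and KO 2, 48 genes and 1 factor were higher in MPPs, and *Gfi1b* (1.07) and *Lyl1* (0.23) turned. Without number 3 of both genotypes, 156 genes were lower and 67 higher in CD115- CDPs, and *Gata2* (-0.043) and *Tal1* (-0.073) turned; *Tal1* also turned in TPM (-0.027). These 2 left-out sets were chosen after seeing the data.

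Leaving out 1 library at a time gave 43 to 548 genes lower and 11 to 368 higher in MPPs, with 1 to 6 factors lower, the highest values being without KO 3, and 0 to 5 lower and 0 to 7 higher in CD115- CDPs. In CD115- CDPs the log2 fold changes then ran from -0.20 to 0.52 for *Gata2*, -0.026 to 0.77 for *Gfi1b*, -0.43 to 0.44 for *Tal1*, -0.20 to 0.51 for *Lyl1* and -0.61 to 1.06 for *Nfe2*. In CLPs they ran from -0.0036 to 0.79 for *Gfi1b* and from -0.15 to 0.018 for *Fli1*.

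A block for the replicate number took the calls in CD115- CDPs to 178 lower and 46 higher. In MPPs the block kept the same 3 factors called, and *Zfpm1* had an adjusted p of 0.0513. In the interaction test 4 of the 8 factors passed with the block, which added *Tal1* (adjusted p = 0.0045), *Lmo2* (0.0065) and *Nfe2* (0.0033), and 2 passed with weights per population, an alternative chosen after seeing the data. Of all genes past the filter in each population 8.15% and 4.66% passed in these fits, against 1.95%. The block changed no other call of a factor beyond those given for CLPs.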
